A study of Mus musculus with 16 samples.

Results

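Transcripts of choroid plexus epithelium, the cell layer in the brain ventricles that makes cerebrospinal fluid, were measured in 16 RNA-seq libraries of mouse cerebral cortex. The 10 named genes, chosen with the results of these libraries known, were Ttr, Sostdc1, Cldn2, Folr1, Kl, Clic6, Aqp1, Otx2, Calml4 and Slc23a3. All 10 were found among the 55573 gene IDs of the deposited count table. Their level in each library is what they were chosen on, so those levels are given as a description, with no test read from them.

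The libraries came from 4 groups of 4 at around postnatal day 180, none of them treated. Aifm1-KI carries a deletion of arginine 200 in Aifm1, the gene of apoptosis-inducing factor, a flavoprotein of mitochondria. Its littermate wild types are Aifm1-WT. Hq-mut is the Harlequin mutant of the same gene, and Hq-WT are its own littermate wild types. The Hq stock is named B6CBACa Aw-J/A-Aifm1Hq/J, although every library has C57BL/6 as its strain label. Neither the sex nor the genotype beyond these names is given, and the labels do not say that each library is 1 animal, so the spread between libraries may be partly technical. The tissue is labelled cerebral cortex, which does not contain the choroid plexus. In bulk tissue, more cells of a type and more RNA per cell cannot be told apart.

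The choroid plexus is a folded epithelium over a vascular core, attached to the ventricle wall next to the ependyma. Its epithelial cells move salt, water and nutrients from blood to cerebrospinal fluid, seal the gap between cells with tight junctions, and secrete carrier proteins. Transthyretin, the product of Ttr, carries thyroid hormone and retinol-binding protein and is one of the most abundant transcripts of that epithelium, and hepatocytes make it too. In the adult forebrain most of these genes are used as markers of the epithelium because most neurons and glia have little of their RNA. Slc23a3 is kept as a given member, although its level did not follow those of the other 9 in these libraries.

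The bases just upstream of the start sites are shown for 3 members whose levels moved together over the libraries (Cldn2, Aqp1 and Otx2) and for Slc23a3, whose level did not follow theirs. Each is the 250 bases before an annotated start on GRCm38.p6, from RefSeq, 5′ to 3′ on the gene's strand. Cldn2 covers chrX:139800558-139800807 on the plus strand, Aqp1 chr6:55336049-55336298 on the plus strand, Otx2 chr14:48667645-48667894 on the minus strand, and Slc23a3 chr1:75133891-75134140 on the minus strand. Capitals mark matches, on either strand, to TAATCC, the core that OTX proteins bind, to TAATTA, a core of many homeodomain proteins, and to TATAAA, the TATA element.
Cldn2: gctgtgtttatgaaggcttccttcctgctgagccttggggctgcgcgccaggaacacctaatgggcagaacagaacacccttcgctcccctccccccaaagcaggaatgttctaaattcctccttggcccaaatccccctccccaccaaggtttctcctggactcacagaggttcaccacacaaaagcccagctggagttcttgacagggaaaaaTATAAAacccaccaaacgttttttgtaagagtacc
Aqp1: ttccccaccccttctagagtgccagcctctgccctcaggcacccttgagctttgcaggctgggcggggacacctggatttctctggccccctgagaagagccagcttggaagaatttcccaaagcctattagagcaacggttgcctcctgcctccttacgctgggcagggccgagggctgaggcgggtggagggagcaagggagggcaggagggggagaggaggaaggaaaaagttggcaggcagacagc
Otx2: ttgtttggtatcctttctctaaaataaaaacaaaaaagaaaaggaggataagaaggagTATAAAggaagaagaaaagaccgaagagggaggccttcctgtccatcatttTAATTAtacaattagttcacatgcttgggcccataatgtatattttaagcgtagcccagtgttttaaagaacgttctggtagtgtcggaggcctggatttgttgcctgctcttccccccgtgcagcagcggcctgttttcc
Slc23a3: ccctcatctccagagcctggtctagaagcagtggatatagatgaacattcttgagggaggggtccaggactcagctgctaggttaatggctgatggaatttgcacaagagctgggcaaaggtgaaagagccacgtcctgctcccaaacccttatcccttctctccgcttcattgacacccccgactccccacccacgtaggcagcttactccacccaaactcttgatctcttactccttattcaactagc
The Cldn2 window held TATAAA, its first base 35 bases before the start site. The Otx2 window held TAATTA at 141 bases and TATAAA at 192 bases before this start, which is 1 of the 4 starts of Otx2 in the table. Of the 9 windows of matched members, 1 held TAATCC: the window of another Otx2 start (chromosome 14, 48665110 to 48665359), not shown, with TAATCC on the opposite strand at 211 bases and TAATTA at 234, 174 and 154 bases before that start. Neither the Aqp1 nor the Slc23a3 window held any of the 3 sets of letters. Of 32851 windows of this length in the RefSeq table, 12.4% held TATAAA, 4.84% TAATTA and 6.25% TAATCC. RefSeq windows were matched for 6 of the 10 members: also Kl and Calml4, beside the 4 shown. Ttr, Sostdc1, Folr1 and Clic6 were not matched.

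Levels are given as CPM, read counts brought to 1 library size by TMM factors over all 16 libraries. The smallest library, Hq-WT 3, had 10671580 counts and the largest, Aifm1-KI 2, had 32551594. A count of 0 allows up to 3 counts, or 0.277 and 0.0876 CPM in these libraries, counting error only. As a check of the labels, Aifm1 was at 3.32 ± 0.791 CPM (SD, n = 4) in Hq-mut and 23.9 ± 1.25 CPM (SD, n = 4) in Hq-WT. It fell by 2.87 on the log2 scale (SE 0.186, adjusted p = 0.000348, edgeR quasi-likelihood test). In Aifm1-KI it was at 23.7 ± 1.84 CPM against 22.7 ± 0.812 CPM in Aifm1-WT (SD, n = 4 each), and gene counts cannot show a deleted codon.

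Aifm1-KI 2 and Hq-WT 2 were the 2 highest of the 16 libraries for 9 of the 10 members, the exception being Slc23a3. That order held for 232 of 18028 genes with a mean of at least 0.5 CPM (1.29%). One of these libraries is a mutant of the first line and the other a wild type of the second. The mean log2 CPM over the 10 members was 4.97 in Hq-WT 2 and 4.38 in Aifm1-KI 2. Aifm1-WT 4 followed at 2.602, then Hq-WT 3 at 1.79, Hq-mut 3 at 1.42 and Hq-mut 2 at 1.39, and the other 10 libraries lay between -1.24 and 0.77. The plot of member levels by library shows the same 2 libraries at the top of 9 panels.

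**Figure D1:**
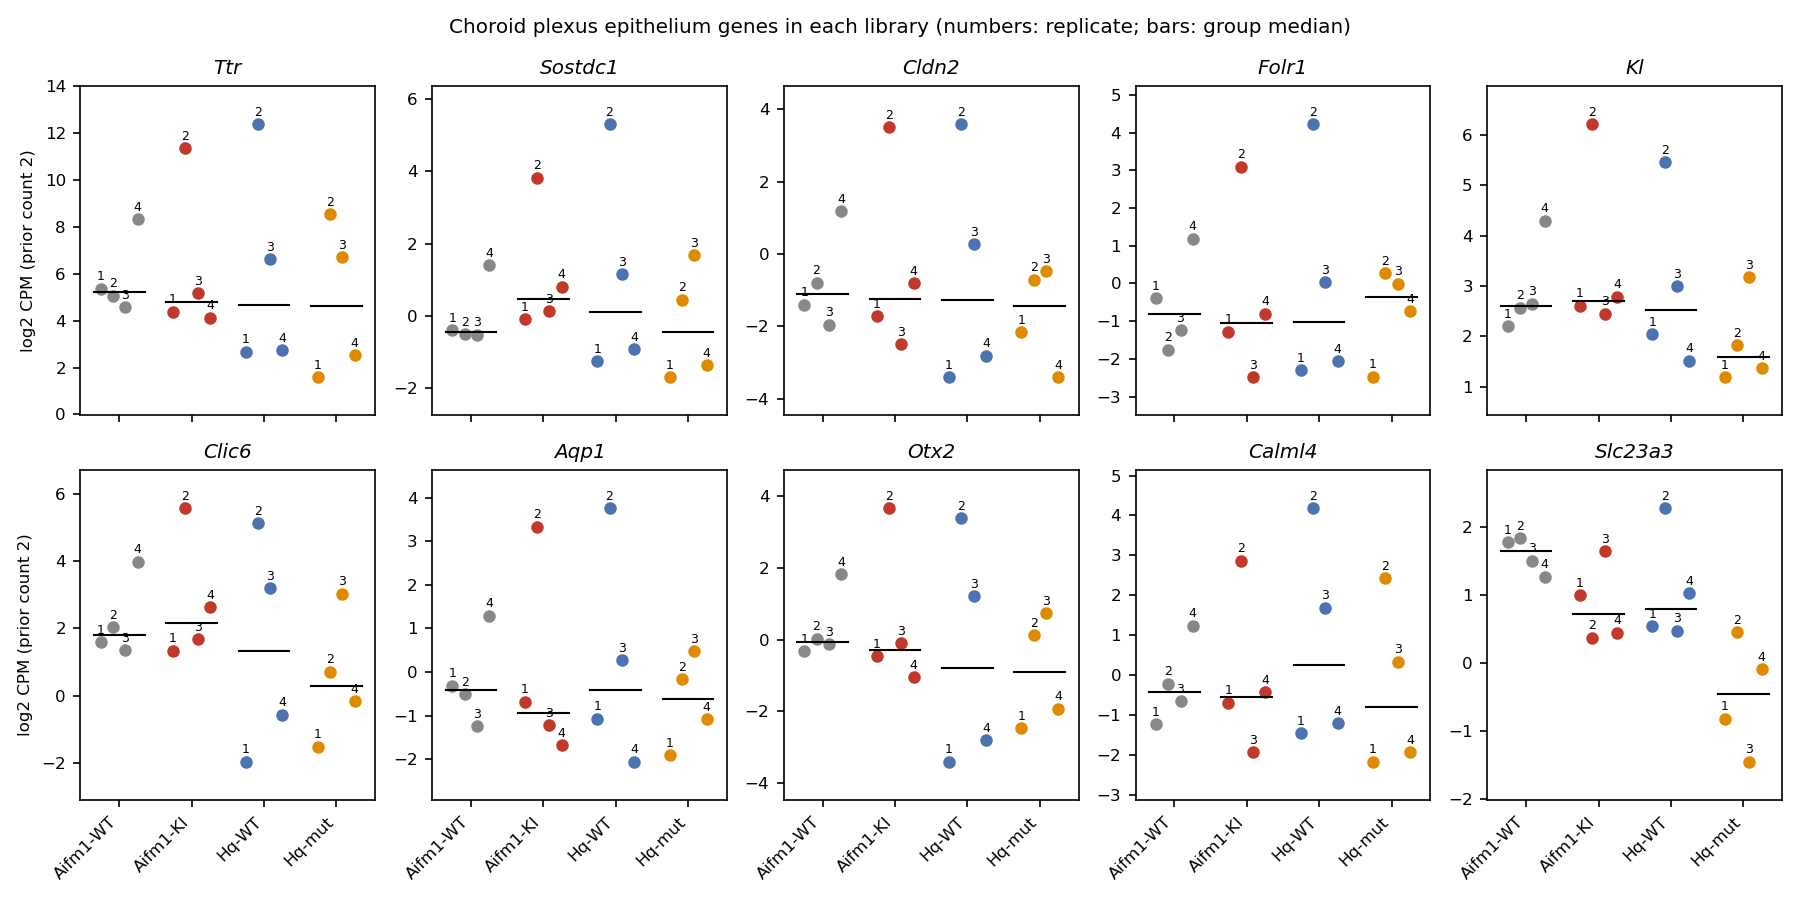
Level of each of the 10 choroid plexus genes in each of the 16 libraries, in log2 CPM with a prior count of 2, by group, with 1 point per library numbered by replicate and bars at the group median. Aifm1-KI 2 and Hq-WT 2 are the highest points for 9 genes, with Ttr at 2652 and 5355 CPM, whereas for Slc23a3 Aifm1-KI 2 is at 1.20 CPM.

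Of the members with secreted or shed products, Ttr was by far the most abundant. Ttr (ENSMUSG00000061808, GRCm38 chromosome 18, 20665280 to 20674321, plus strand) was at 40.9, 33.3, 23.5 and 323 CPM in Aifm1-WT 1 to 4. In Aifm1-KI 1 to 4 it was at 20.8, 2652, 36.0 and 17.4 CPM. In both groups 1 library was far above the other 3, and without it the groups overlapped. Ttr was at 6.31, 5355, 98.1 and 6.60 CPM in Hq-WT 1 to 4. The values in Hq-mut 1 to 4 were 2.91, 371, 104 and 5.66 CPM. Numbers 2 and 3 were high and numbers 1 and 4 low in mutants and wild types alike.

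In Hq-WT 2, Ttr took 0.521% of all counts and stood at rank 7 of all genes, and in Aifm1-KI 2 it took 0.279% and stood at rank 14. Its share was 0.000275% in Hq-mut 1, where it stood at rank 12962. The group means of Ttr ran from 105 ± 145 CPM in Aifm1-WT to 1366 ± 2659 CPM in Hq-WT (SD, n = 4 each), while the group medians lay within 1.93-fold of each other (37.1, 28.4, 52.3 and 54.9 CPM in Aifm1-WT, Aifm1-KI, Hq-WT and Hq-mut). The means thus followed single libraries and the medians did not. In the Hq groups, though, no library was near the median. It fell in a gap between 6.60 and 98.1 CPM in Hq-WT and between 5.66 and 104 CPM in Hq-mut. Numbers 1 and 4 of both Hq groups, at 2.91 to 6.60 CPM, were under every library of the Aifm1 line (17.4 CPM or more).

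Sostdc1 (ENSMUSG00000036169, chromosome 12, 36314139 to 36318452, plus strand) encodes a secreted antagonist of BMP and Wnt signalling. It was at 0.665, 0.605, 0.601 and 2.54 CPM in Aifm1-WT 1 to 4, and at 0.845, 14.1, 1.01 and 1.66 CPM in Aifm1-KI 1 to 4. It was at 0.326, 39.5, 2.13 and 0.437 CPM in Hq-WT 1 to 4, and at 0.214, 1.27, 3.10 and 0.295 CPM in Hq-mut 1 to 4. Hq-WT 2 was 42.7-fold above the median of the 16 libraries, and for this gene Hq-mut 3 exceeded Hq-mut 2, the reverse of Ttr.

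Kl (ENSMUSG00000058488, chromosome 5, 150952607 to 150993817, plus strand) encodes klotho, a membrane co-receptor for FGF23 that is also shed. It was at 4.51, 5.85, 6.17 and 19.6 CPM in Aifm1-WT 1 to 4, and at 6.02, 74.4, 5.36 and 6.81 CPM in Aifm1-KI 1 to 4. The values were 4.03, 43.9, 7.86 and 2.77 CPM in Hq-WT 1 to 4, and 2.18, 3.46, 8.91 and 2.49 CPM in Hq-mut 1 to 4. Kl was the only member besides Ttr, among those with Aifm1-KI 2 and Hq-WT 2 at the top, that had at least 2 CPM in all 16 libraries, and its highest library was 12.5-fold above the median.

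Tight junction and channel genes had the same 2 high libraries. Cldn2 (ENSMUSG00000047230, chromosome X, 139800828 to 139811386, plus strand) encodes claudin-2, which forms cation pores in leaky epithelia. Cldn2 was at 0.285, 0.484, 0.164 and 2.18 CPM in Aifm1-WT 1 to 4, and at 0.211, 11.3, 0.0838 and 0.480 CPM in Aifm1-KI 1 to 4. It had no count in Hq-WT 1 and in Hq-mut 4, which allows up to 0.163 and 0.127 CPM. The other values were 11.97, 1.11 and 0.0486 CPM in Hq-WT 2 to 4, and 0.128, 0.516 and 0.630 CPM in Hq-mut 1 to 3. Cldn2 had 386 counts in Aifm1-KI 2, 233 in Hq-WT 2, 49 in Aifm1-WT 4 and at most 14 in the other 13 libraries.

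Aqp1 (ENSMUSG00000004655, chromosome 6, 55336432 to 55348555, plus strand) encodes the water channel aquaporin-1 of the apical membrane. It was at 0.713, 0.605, 0.328 and 2.36 CPM in Aifm1-WT 1 to 4, and at 0.528, 10.02, 0.335 and 0.218 CPM in Aifm1-KI 1 to 4. It was at 0.381, 13.4, 1.11 and 0.146 CPM in Hq-WT 1 to 4, and at 0.171, 0.795, 1.30 and 0.380 CPM in Hq-mut 1 to 4. As for Cldn2, Aifm1-WT 4 was the third highest library.

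Clic6 (ENSMUSG00000022949, chromosome 16, 92485736 to 92541243, plus strand) belongs to the chloride intracellular channel family. It was at 2.90, 3.996, 2.46 and 15.7 CPM in Aifm1-WT 1 to 4, and at 2.43, 47.1, 3.10 and 6.11 CPM in Aifm1-KI 1 to 4. It was at 0.163, 34.8, 9.06 and 0.583 CPM in Hq-WT 1 to 4, and at 0.257, 1.55, 8.10 and 0.802 CPM in Hq-mut 1 to 4. Clic6 had the largest ratio of group medians among the 9 members with the shared order (4.10-fold), and in numbers 1 and 4 of both Hq groups it was under every Aifm1 library.

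The uptake genes divided. Folr1 (ENSMUSG00000001827, chromosome 7, 101858331 to 101870788, minus strand) encodes folate receptor alpha, which carries folate across the epithelium. It was at 0.665, 0.202, 0.328 and 2.18 CPM in Aifm1-WT 1 to 4, and at 0.317, 8.44, 0.0838 and 0.480 CPM in Aifm1-KI 1 to 4. It was at 0.109, 18.6, 0.924 and 0.146 CPM in Hq-WT 1 to 4, and at 0.0856, 1.11, 0.900 and 0.507 CPM in Hq-mut 1 to 4. Folr1 followed the order of the other members.

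Slc23a3 (ENSMUSG00000026205, chromosome 1, 75125541 to 75133890, minus strand), a relative of the ascorbate transporters, did not. It was at 3.33, 3.47, 2.73 and 2.31 CPM in Aifm1-WT 1 to 4, and at 1.90, 1.20, 3.02 and 1.27 CPM in Aifm1-KI 1 to 4. The libraries Hq-WT 1 to 4 had 1.36, 4.73, 1.29 and 1.94 CPM, and Hq-mut 1 to 4 had 0.471, 1.27, 0.270 and 0.844 CPM. Its level in Aifm1-KI 2 was the lowest of that group, close under Aifm1-KI 4. Hq-WT 2 was the highest library at 4.73 CPM, followed by Aifm1-WT 2 at 3.47 CPM. All 4 Hq-mut libraries were below all 4 Hq-WT libraries, though Hq-mut 2 was close under Hq-WT 3.

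The remaining members are a transcription factor and a calcium-binding protein. Otx2 (ENSMUSG00000021848, chromosome 14, 48657677 to 48673819, minus strand) encodes a homeodomain factor that the choroid plexus keeps expressing in the adult. It was at 0.713, 0.928, 0.819 and 3.47 CPM in Aifm1-WT 1 to 4, and at 0.634, 12.6, 0.838 and 0.393 CPM in Aifm1-KI 1 to 4. It had no count in Hq-WT 1, which allows up to 0.163 CPM. It was at 10.5, 2.22 and 0.0486 CPM in Hq-WT 2 to 4, and at 0.0856, 0.993, 1.57 and 0.169 CPM in Hq-mut 1 to 4. Whether the TAATTA and TATAAA matches shown for its promoter relate to these levels was not tested.

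Calml4 (ENSMUSG00000032246, chromosome 9, 62858080 to 62875921, plus strand) encodes a calmodulin-like protein of microvilli. It was at 0.333, 0.767, 0.546 and 2.27 CPM in Aifm1-WT 1 to 4, and at 0.528, 7.21, 0.168 and 0.654 CPM in Aifm1-KI 1 to 4. It was at 0.272, 18.0, 3.14 and 0.340 CPM in Hq-WT 1 to 4, and at 0.128, 5.28, 1.17 and 0.169 CPM in Hq-mut 1 to 4. Hq-mut 2 was well above Hq-mut 3 for Calml4, as for Ttr, whereas Sostdc1, Cldn2, Kl, Clic6, Aqp1 and Otx2 had the reverse order. That reverse order rested on few counts for Cldn2 (13 in Hq-mut 2 and 14 in Hq-mut 3), Aqp1 (20 and 29) and Otx2 (25 and 35).

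All 10 members are protein-coding. Of these, 4 overlap another gene in GENCODE M21, judged from gene start to gene end and not by exons. On the opposite strand these were Folr1 with Anapc15, Otx2 with Otx2os1 and Calml4 with Gm10653. On the same strand they were Otx2 with Gm49154 and Clic6 with 2410124H12Rik. The strand setting of the counting is not given in the sources used here. Whether the counts of these 4 members hold reads of the partner is thus not known. Per kilobase of exon, the mean over the 16 libraries was 479 CPM for Ttr and between 0.532 CPM for Otx2 and 2.43 CPM for Sostdc1 for the other 9 members. After Ttr, the order per kilobase was Sostdc1, Clic6 at 2.22 and Kl at 1.37 CPM, and then 6 genes from 0.956 CPM (Folr1) down to Otx2.

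Members that share the high libraries also ranked the other libraries alike. Over the 16 libraries, Spearman's correlation of log2 CPM was 0.662 to 0.932 for the 36 pairs among the 9 members without Slc23a3 (median 0.832). Without Hq-WT 2 and Aifm1-KI 2, over 14 libraries, it was 0.499 to 0.903 (median 0.751). Slc23a3 had correlations of -0.0353 to 0.259 with the other 9 (median 0.118). These values describe 16 libraries whose depth the genes share, and the low counts of several members limit them.

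Aifm1-WT 4 was the highest of its group for 9 of the 10 members and the third highest of all 16 for 6, against 29.9% and 7.14% of the 18028 genes. In both Hq groups, numbers 2 and 3 were above numbers 1 and 4 for 9 of the 10 members, against 4.64% of those genes. Of 35 other choroid plexus genes, 10 (28.6%) had that Hq pattern, and Aifm1-WT 4 was the highest of its group for 27 and the third highest of all 16 for 15. So the members separated libraries within every group, and in the Hq line they did so by replicate number.

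The high libraries did not hold the members in the same proportions. Ttr was 122-fold above Kl in Hq-WT 2 and 107-fold in Hq-mut 2, against 35.7-fold in Aifm1-KI 2, 16.5-fold in Aifm1-WT 4, 12.5-fold in Hq-WT 3 and 11.7-fold in Hq-mut 3. These are ratios of CPM and not of CPM per kilobase. The other 8 members without Slc23a3 summed to 191 CPM in Hq-WT 2 and 185 CPM in Aifm1-KI 2, almost the same level. In Hq-mut 2 they summed to 14.98 CPM, less than the 25.7 CPM of Hq-mut 3, although Ttr was 371 CPM in Hq-mut 2 and 104 CPM in Hq-mut 3. The Calml4 level relative to Kl ranged from 0.0970 in Aifm1-KI 2 to 0.410 in Hq-WT 2 and 1.53 in Hq-mut 2.

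The difference between the 2 high libraries went with exon length. Hq-WT 2 was above Aifm1-KI 2 for Slc23a3 (3.95-fold), Sostdc1 (2.81-fold), Calml4 (2.49-fold), Folr1 (2.21-fold) and Ttr (2.02-fold). It was 1.34-fold above for Aqp1 and 1.06-fold for Cldn2, while the ratio of Hq-WT 2 to Aifm1-KI 2 was 0.832 for Otx2, 0.739 for Clic6 and 0.590 for Kl, the member with the longest exons (9.33 kb against 1.19 kb for Ttr). Spearman's correlation of the log2 difference with exon length was -0.758 over the 10 members and -0.650 over the members and 35 other choroid plexus genes together. It was -0.346 over 13541 protein-coding genes with a mean of at least 1 CPM, which had a median difference of 0.33 in the shortest and -0.14 in the longest of 4 equal bins by length, on the log2 scale. For Hq-mut 2 minus Hq-mut 3 the values were -0.418, -0.527 and -0.599, and for Hq-WT 3 minus Aifm1-WT 4 they were 0.176, -0.104 and 0.174. Within the Hq-WT group, for Hq-WT 2 minus Hq-WT 3, they were -0.588, -0.379 and -0.412. The points of each correlation are genes of the same 2 libraries and not replicates. The part of exon length, or of RNA quality, in the members' differences was not tested.

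**Figure D2:**
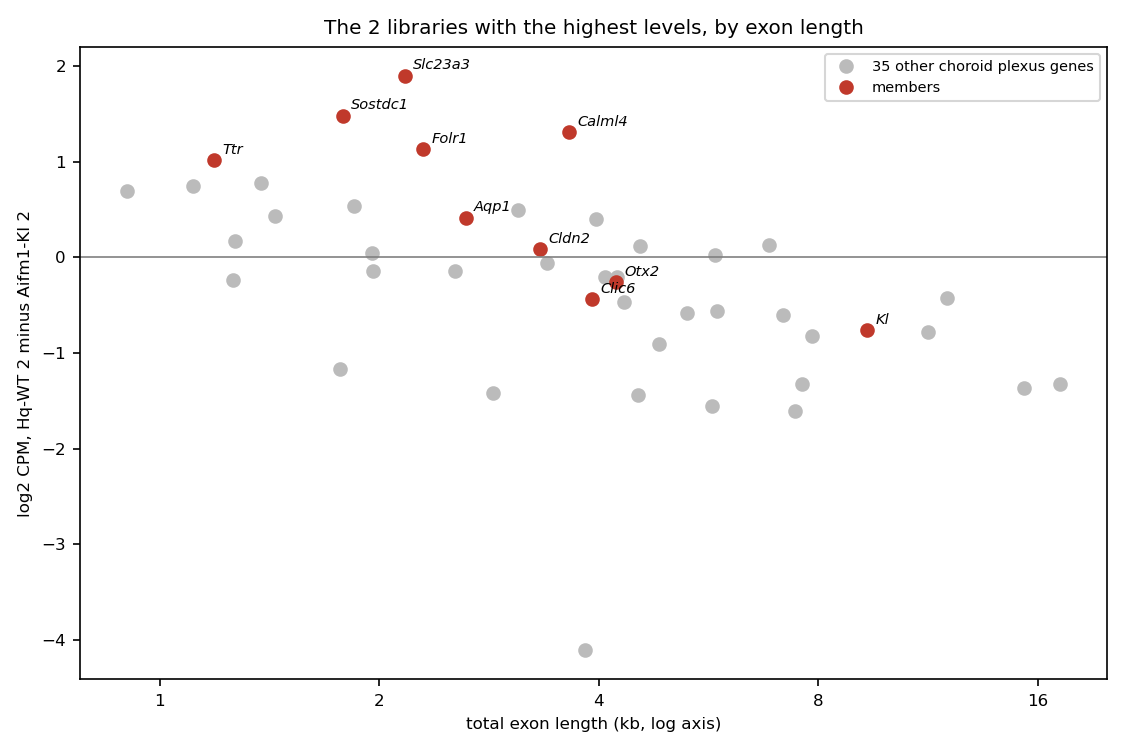
Log2 difference in CPM between Hq-WT 2 and Aifm1-KI 2 against exon length in kilobases on a log scale, with 1 point per gene for the 10 members (named) and the 35 other choroid plexus genes (grey). Of the members, Kl, with the longest exons, lies below 0 and Ttr, with the shortest, above it.

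Between Aifm1-KI and its wild types, 9 of the 10 members had a positive log2 fold change and none was called. All 10 passed the filter on low counts here and in the Hq line, several of them through the libraries where they are high. The called share of all genes was also 0% (0 of 18383 at an adjusted p under 0.05 in edgeR's quasi-likelihood test), with 2094 genes at an unadjusted p under 0.05. DESeq2 called 82 genes and limma-voom 0, and no member was called by either, though DESeq2 gave 9 of the 10 members no adjusted p. The median log2 fold change was 1.51 over the 10 members and 0.01 over all genes tested, and 51.6% of all genes had a positive one. Ttr had 2.72 (SE 1.64), Sostdc1 2.08 (SE 0.934), Cldn2 2.07 (SE 1.25) and Kl 1.42 (SE 0.885), and Slc23a3 had -0.74 (SE 0.291).

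The direction rested on Aifm1-KI 2. Without that library, 9 of the 10 members had a negative log2 fold change, the median was -1.16 and Ttr was at -2.10, while Sostdc1 kept a positive value of 0.12. Without Aifm1-WT 4 the median was 2.36 and Ttr was at 4.39. With both of these libraries left out, 8 members passed the filter on low counts, 3 with a positive and 5 with a negative value, and the median was -0.30. No member had every Aifm1-KI library above every Aifm1-WT library or the reverse, which 2.03% and 2.83% of all genes did.

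**Figure D3:**
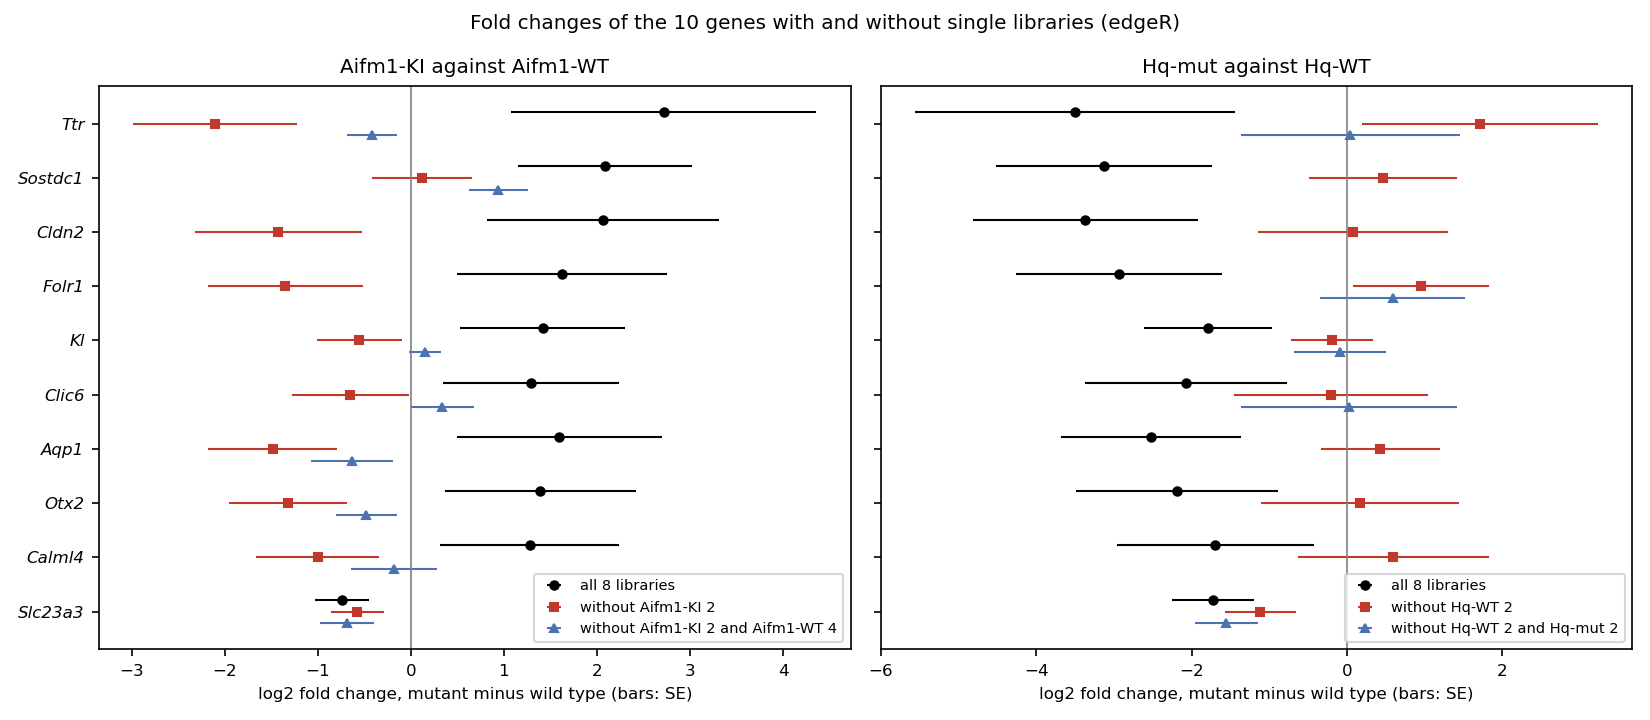
Log2 fold change of each member, mutant against wild type, in the Aifm1 line and the Hq line, from all 8 libraries of a line (circles), with 1 high library left out (squares: Aifm1-KI 2 or Hq-WT 2) and with 2 left out (triangles: also Aifm1-WT 4 or Hq-mut 2; members that failed the filter on low counts have none). Bars on the points are standard errors. The points from all libraries lie above 0 for 9 members in the Aifm1 line and below 0 for 10 in the Hq line, and most cross 0 once the high library is left out.

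Between the Harlequin mutants and their wild types, all 10 members had a negative log2 fold change and none was called. Of all genes, 0.0167% were called (3 of 17969) and 385 had an unadjusted p under 0.05. The median was -2.36 over the members and 0.01 over all genes tested, of which 53.1% had a positive value. Ttr had -3.50 (SE 2.06), Cldn2 -3.37 (SE 1.45), Sostdc1 -3.13 (SE 1.39) and Slc23a3 -1.73 (SE 0.524), the smallest SE of the 10.

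Here the direction rested on Hq-WT 2 for 7 members. Without it, those 7 were positive, Ttr at 1.71, and Clic6 at -0.21, Kl at -0.19 and Slc23a3 at -1.12 stayed negative, with a median of 0.30 over the 10. Libraries of the same number in the Hq line deviated together over all genes, and a fit with the replicate number as a block gave a median of -1.71, with Ttr at -1.37 (SE 0.646), Calml4 at -1.57 (SE 0.210) and Slc23a3 at -1.69 (SE 0.244), and called no member either. Leaving out both libraries numbered 2 kept 5 members in the test with a median of 0.02.

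Number by number, the largest differences were all in number 2 for 9 of the members. There Hq-mut minus Hq-WT was between -1.75 for Calml4 and -4.86 for Sostdc1 in log2 CPM, with Ttr at -3.85. In number 3, where both libraries had intermediate levels, it was 0.09 for Ttr, 0.53 for Sostdc1, 0.18 for Kl, -0.16 for Clic6 and -0.04 for Folr1. There Aqp1 was at 0.22, Otx2 at -0.47, Cldn2 at -0.73, Calml4 at -1.36 and Slc23a3 at -1.93, so that 6 of the 10 members were negative. In numbers 1 and 4 most members had low counts, and their signs were mixed. The differences of -1.09 and -0.22 for Ttr and -0.86 and -0.15 for Kl are the better measured ones. Clic6 was at 0.45 and 0.40 and Otx2 at 0.93 and 0.88. Cldn2 was at 1.24 and -0.60, Folr1 at -0.17 and 1.32, and Aqp1 at -0.84 and 0.98. Sostdc1 was at -0.45 in both numbers, and Calml4 and Slc23a3 were negative in both.

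Calml4 and Slc23a3 were lower in Hq-mut at each of the 4 numbers, a pattern of 6.86% of the 18028 genes. For Slc23a3 the differences were -1.36, -1.82, -1.93 and -1.12, so that number 2 did not stand apart. For Calml4 they were -0.72, -1.75, -1.36 and -0.72. Its numbers 1 and 4 rested on few reads: 3 and 4 counts in Hq-mut against 5 and 7 in Hq-WT. Those 2 signs are thus poorly measured. Slc23a3 was the only member whose Hq groups did not overlap, every mutant library below every wild type, as were 0.723% of all genes tested. None had every mutant library above every wild type (0.857% of all genes). Its group means were 0.714 ± 0.441 CPM in Hq-mut and 2.33 ± 1.62 CPM in Hq-WT (SD, n = 4 each).

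**Figure D4:**
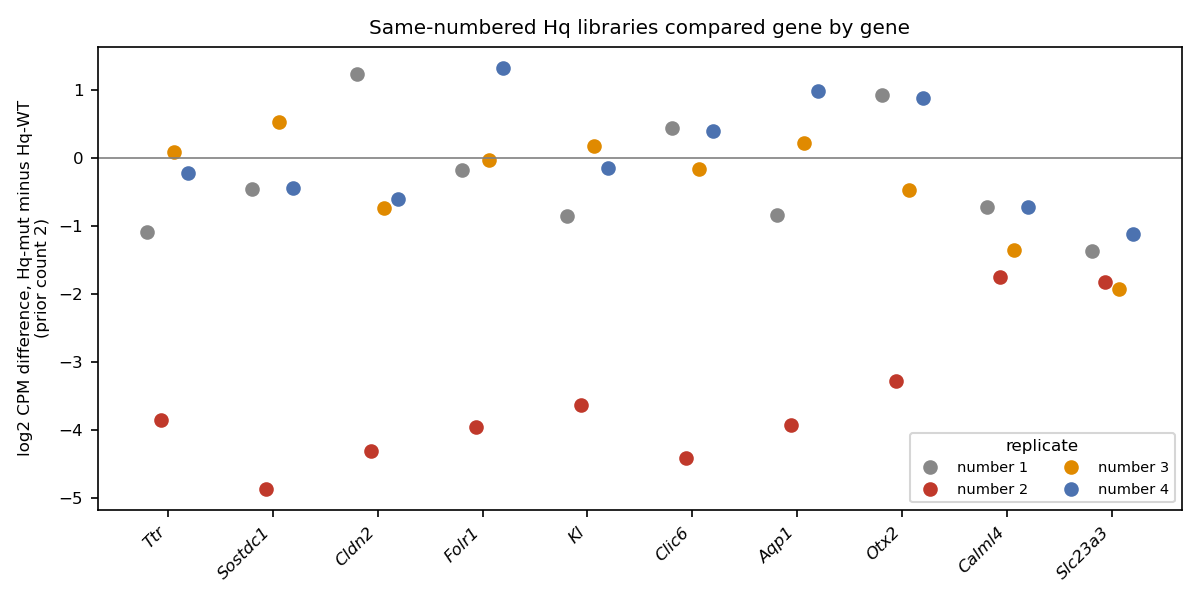
Log2 CPM of each member in Hq-mut minus Hq-WT for libraries of the same number, with 1 point per number and a prior count of 2. Number 2 lies between -1.75 and -4.86 for the 9 members without Slc23a3, and all 4 numbers are below 0 for Calml4 and Slc23a3.

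The 35 other choroid plexus genes were listed by function for comparison, with earlier results of these data known. Their values are a description and no independent support for the members. They mostly had the same 2 high libraries: Aifm1-KI 2 and Hq-WT 2 were the 2 highest for 28 of the 35. In Aifm1-KI against Aifm1-WT, 28 of the 35 were tested, 27 had a positive log2 fold change, none was called, and the median was 0.54. Without Aifm1-KI 2, 7 of the 28 were positive. In Hq-mut against Hq-WT, 27 were tested, 25 had a negative value, none was called, and the median was -0.70. Without Hq-WT 2, 13 of the 27 were negative.

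Among the transport genes, 8 of the 9 tested had a positive value in the Aifm1 line and all 9 a negative one in the Hq line. Car12, a carbonic anhydrase, was at 63.1 CPM in Aifm1-KI 2 and 25.1 CPM in Hq-WT 2, and between 6.01 and 29.1 CPM elsewhere. Slc13a4, a sulfate transporter, was at 28.9 CPM in Aifm1-KI 2 and 15.2 CPM in Aifm1-KI 4, and Hq-WT 2 was at 10.6 CPM, inside the range of the other libraries. Slc29a4, a monoamine transporter, was at 32.4 CPM in Aifm1-KI 2, 18.4 CPM in Aifm1-KI 4 and 12.1 CPM in Hq-WT 2. Aifm1-KI 4, low for the members, was above Hq-WT 2 for all 3 genes.

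Among secreted products and receptors, Enpp2, which encodes autotaxin, was at 869 CPM in Aifm1-KI 2 and 885 CPM in Hq-WT 2, and at most 393 CPM in the other 14 libraries. Igfbp2, an IGF-binding protein, was at 59.7 CPM and 86.8 CPM in these libraries and at 8.95 to 37.8 CPM elsewhere. Sulf1, a heparan sulfatase, was at 43.1 CPM in Aifm1-KI 2 but also at 41.1 CPM in Hq-mut 1. All 11 tested genes of this list had a positive value in the Aifm1 line, and 9 of 11 a negative one in the Hq line.

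The junction and keratin list had 5 of 5 positive in the Aifm1 line and 4 of 4 negative in the Hq line. Cldn1, a tight junction claudin, was at 10.8 CPM in Aifm1-KI 2 and 5.75 CPM in Hq-WT 2, and at most 4.05 CPM elsewhere. Perp, a desmosome protein, was at 9.87 and 10.2 CPM there and at most 6.18 CPM elsewhere, whereas Cgnl1, a cingulin relative, was at 29.1 CPM in Aifm1-KI 2 and 16.5 CPM in Hq-WT 2, inside the range of the other libraries.

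Of the factors, Msx1, a homeodomain factor, was at 8.15 CPM in Aifm1-KI 2 and 11.5 CPM in Hq-WT 2, and at most 4.72 CPM elsewhere. Rbm47, an RNA-binding protein, was at 5.35 and 3.49 CPM, and at most 2.09 CPM elsewhere. Cab39l, a scaffold of the LKB1 kinase complex, was at 50.8 and 55.7 CPM, over 29.6 to 40.4 CPM in the other libraries. All 3 genes had a positive value in the Aifm1 line and a negative one in the Hq line.

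Markers of neighbouring tissues were read in the same libraries. The 10 ependyma genes summed to 36.3 CPM in Aifm1-KI 2, 32.1 CPM in Aifm1-KI 4, 30.5 CPM in Hq-mut 3 and 29.2 CPM in Hq-WT 2, and to between 8.64 and 24.6 CPM in the other 12. By mean, their highest gene was Foxj1, the master factor of motile cilia. Foxj1 was at 9.99 CPM in Aifm1-KI 2, 7.14 CPM in Hq-WT 2 and 11.4 CPM in Hq-mut 3. The highest single value was of Rsph1, at 12.8 CPM in Hq-WT 2, followed by 8.03 CPM in Aifm1-KI 2. The 10 genes of meninges and choroid stroma summed to 123 CPM in Aifm1-KI 2 but 26.4 CPM in Hq-WT 2, with Col1a2, a collagen, at 21.6 and 3.49 CPM.

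The 10 striatal genes summed to 641 CPM in Aifm1-KI 2, 591 CPM in Aifm1-KI 4 and 856 CPM in Hq-mut 3, against 301 CPM in Hq-WT 2 and 227 to 367 CPM in the other 12 libraries. Pde10a, a phosphodiesterase of striatal neurons, reached 253 CPM in Hq-mut 3. The 8 cortical excitatory neuron genes summed to 1578 CPM in Aifm1-KI 2, the lowest library, and to 2595 CPM in Hq-WT 2, while Slc17a7, a vesicular glutamate transporter, was at 1090 and 1685 CPM. So Aifm1-KI 2 had high striatal and low cortical markers and Hq-WT 2 had neither. The part of these other tissues in the members' levels was not tested.

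The 18 liver genes, read because hepatocytes make transthyretin, were high in other libraries than Ttr. They summed to 353 and 409 CPM in Aifm1-WT 1 and 2, with albumin (Alb) at 155 and 171 CPM, where Ttr was at 40.9 and 33.3 CPM. They summed to 16.7 CPM in Aifm1-KI 2 and 10.4 CPM in Hq-WT 2, with Alb at 6.78 and 2.67 CPM. The 8 kidney genes summed to 0.397 to 1.35 CPM over all libraries, with Umod and Miox at 0 in every one, and Slc22a12 at most 0.767 CPM. The 6 genes of pineal gland and retinal pigment epithelium summed to 1.76 to 4.71 CPM, with Rpe65 at most 2.51 CPM, and the 6 blood genes to 25.5 to 87.9 CPM, with Hbb-bs at 15.6 to 59.7 CPM. Hippocampal genes summed to 16.5 to 37.7 CPM, with Prox1 at most 23.3 CPM, and thalamic genes reached 128 CPM in Aifm1-KI 2, where Slc17a6 was at 84.7 CPM.

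**Figure D5:**
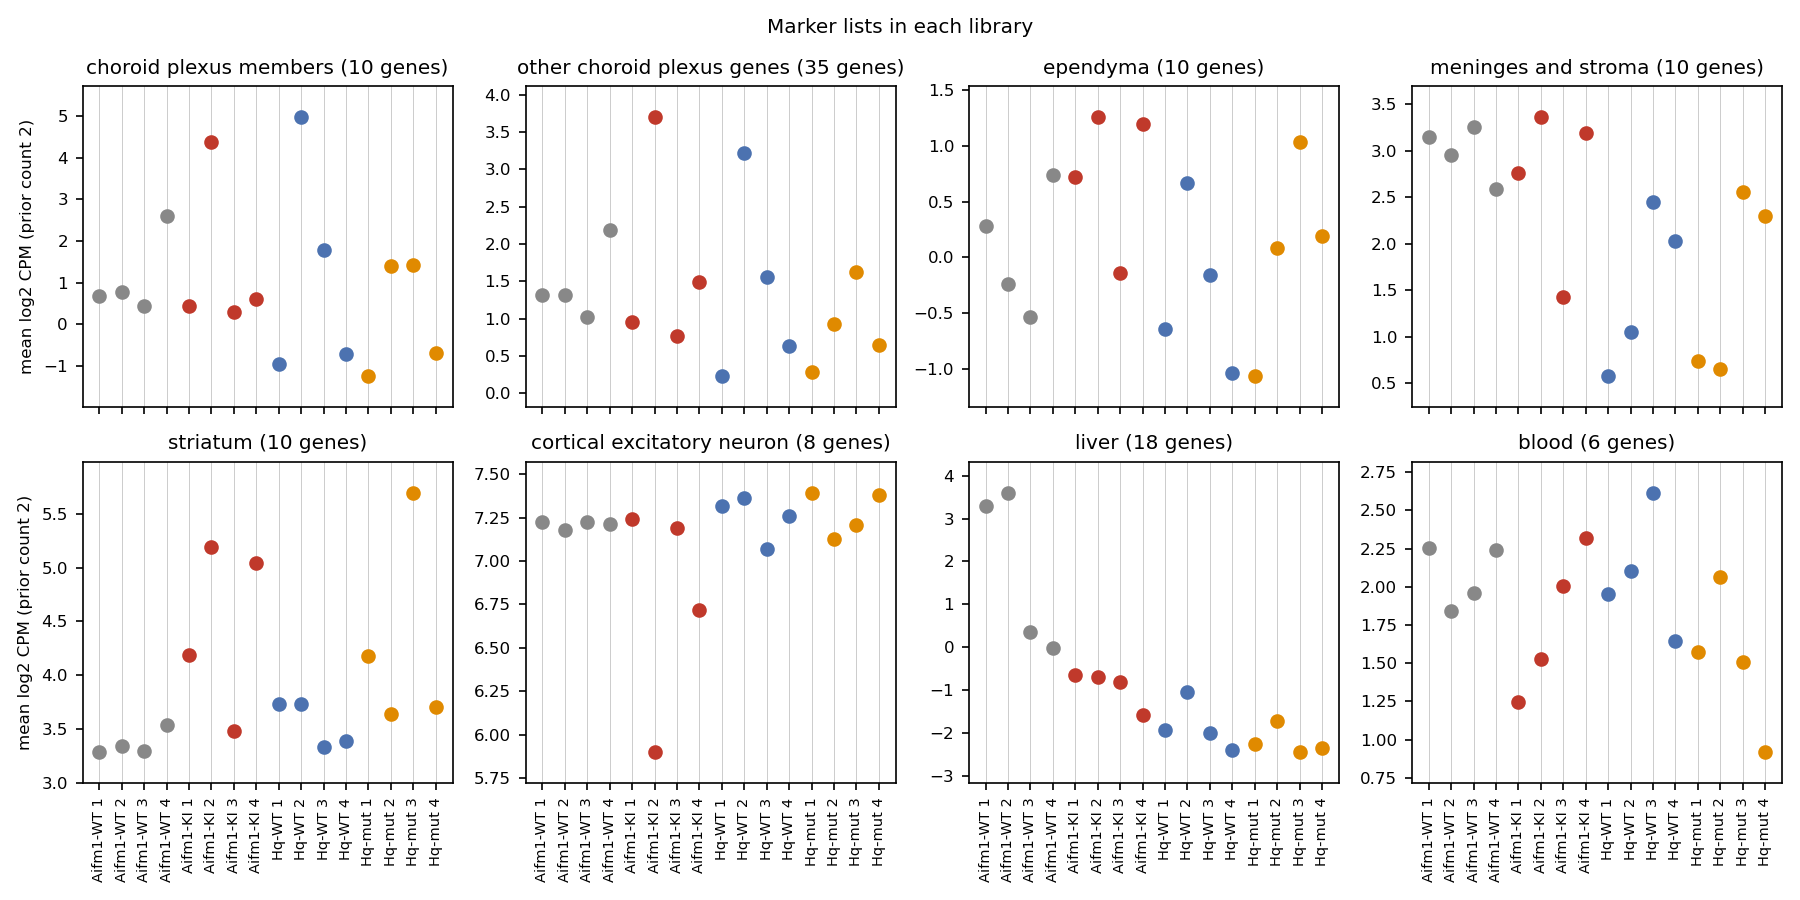
Mean log2 CPM (prior count 2) of the members, the other choroid plexus genes and 6 marker lists (ependyma, meninges and stroma, striatum, cortical excitatory neurons, liver and blood) in each of the 16 libraries, with 1 point per library, by group. Members were at 4.38 in Aifm1-KI 2 and 4.97 in Hq-WT 2, whereas the striatal list was at 5.19 and 3.73 in the same libraries.

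The genes whose levels were most like the members were ranked by Spearman's correlation of log2 CPM with the members' mean over the 16 libraries, among 14308 genes with a mean of at least 0.5 CPM that are no member and have a symbol that is no predicted gene, clone or Rik name. The first was Prr32 (0.946), then Krt18 (0.912), Kcne2 (0.906), Slc4a5 (0.901), Btd (0.897), Epn3 (0.894), Car14 (0.891), Angptl2 (0.882), Tspo (0.879) and Tmem72 (0.876). Of these 10, 6 stand on the lists of other choroid plexus genes: Prr32, Krt18, Kcne2, Slc4a5, Car14 and Tmem72. Those lists were made with earlier results of these data known. Kcne2, a potassium channel subunit, was at 16.8 CPM in Aifm1-KI 2 and 7.45 CPM in Hq-WT 2, and at 3.56 CPM in Aifm1-WT 4, the third highest, and under 1 CPM in the other 13 libraries. Btd, which encodes biotinidase, varied much less, from 5.28 to 9.55 CPM. By Pearson's correlation over 15 libraries without Hq-WT 2, 5 of the 10 were again among the first 10.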

How the data were processed

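Per the labels' protocols, TRIzol RNA of cerebral cortex went into KAPA mRNA libraries. Per the series' design text, the authors trimmed 51-base single-end reads, mapped them to mm10 with STAR (2.6, per the submitters' processing notes, which also name SAMtools), and obtained counts per gene with htseq-count. The deposited table holds raw read counts, not normalized, for 55573 Ensembl IDs. GENCODE M21 gave 55394 of them a symbol. Which annotation, strand option and HTSeq version were used was not given in the sources used here, so reads of overlapping genes may be shared.

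The counts were tested as deposited with edgeR 4.0.16 in R 4.3.3 (TMM factors, default filter on low counts by group, quasi-likelihood F-test, Benjamini-Hochberg adjusted p under 0.05), in separate fits of 8 libraries. The fit was tested on simulated data with 200 changed genes. Those data had the same dispersion for every gene and no outlying library. They thus do not show how the fit handles single high libraries such as those of the members. CPM used TMM factors over 16 libraries, log2 CPM a prior count of 2, and SE is the fold change over the square root of F. No library was a copy of another: chi-square per gene within groups was 2.49 to 56.4 over 24 pairs.

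The members and the 15 lists with 135 genes were chosen with earlier results of these data known. The text names all members, the 3 genes of highest mean CPM of each other choroid plexus list, the highest genes of each other list by mean or single library, and the 10 genes most like the members. Umod and Miox were named after their values were seen. The main fits used no pairs. For the number-by-number differences, Hq replicate numbers were taken as pairs because deviations of same-numbered libraries correlated at 0.431, 0.534, 0.409 and 0.453. This pairing was inferred from these data. The alternatives were a replicate block, DESeq2 1.42.0, limma-voom (limma 3.58.1), RLE factors, no filter, and each library left out.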

Additional observations from a re-analysis of the deposited data

Results flagged for a closer look

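A library was marked when its gap to the nearest of its group's other 3, divided by the group's range, exceeded 0.829 (Dixon's 95% value for 4 samples). For normally distributed values, chance marks about 1 group in 20, and whether the CPM values are so distributed was not tested. Of 88 groups of CPM values tested, over the 10 members and 12 other choroid plexus genes, 31 were marked. The members were chosen on these levels, and the 12 other genes come from lists made with earlier results known. All marks are thus a description, and their number is not to be read against that rate. The genes are also correlated, so these are not separate events, and no cause was tested.

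Aifm1-KI 2 stood high in its group for 9 members: Ttr at 2652 CPM, Kl at 74.4 CPM, Clic6 at 47.1 CPM, Sostdc1 at 14.1 CPM, Otx2 at 12.6 CPM, Cldn2 at 11.3 CPM, Aqp1 at 10.02 CPM, Folr1 at 8.44 CPM and Calml4 at 7.21 CPM. It also stood high for Enpp2 at 869 CPM and Cldn1 at 10.8 CPM.

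Hq-WT 2 stood high for 7 members: Ttr at 5355 CPM, Kl at 43.9 CPM, Sostdc1 at 39.5 CPM, Folr1 at 18.6 CPM, Calml4 at 18.0 CPM, Aqp1 at 13.4 CPM and Cldn2 at 11.97 CPM. It stood high as well for Enpp2 at 885 CPM, Cab39l at 55.7 CPM and Car12 at 25.1 CPM.

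Aifm1-WT 4 was marked at lower levels for 6 members: Ttr at 323 CPM, Kl at 19.6 CPM, Clic6 at 15.7 CPM, Otx2 at 3.47 CPM, Sostdc1 at 2.54 CPM and Cldn2 at 2.18 CPM, and for Msx1 at 4.72 CPM. Hq-mut 3 was marked for Clic6 at 8.10 CPM and Rbm47 at 1.71 CPM. The single low value was Igfbp2 at 8.95 CPM in Hq-mut 1.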

How the results depend on the processing

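In Aifm1-KI against Aifm1-WT the 0 called genes became 82 with DESeq2 (47 higher, 35 lower), and 0 to 46 with each library left out, 46 (43 higher, 3 lower) without Aifm1-KI 3. DESeq2 gave 9 of the 10 members no adjusted p there and 4 in the Hq line, so it could not call them. In Hq-mut against Hq-WT the 3 called genes became 1 to 2 with each library left out, 1 without both libraries numbered 2, and 1 without numbers 2 and 3; these 2 settings and the joint removal of Aifm1-KI 2 and Aifm1-WT 4 were chosen after seeing the data. With the replicate block, 0 genes in the Aifm1 line and 3 in the Hq line were called, and no call on a member changed. The Aifm1 numbers were not taken as pairs (correlations of 0.0596, 0.0991, 0.0386 and -0.0255), and there the block gave Ttr -0.01. No member that could be tested was called under any alternative run in either line, but only 8 members were fitted without Aifm1-KI 2 and Aifm1-WT 4, 5 without the Hq libraries numbered 2, and 4 without those numbered 2 and 3. Another scaling (library totals or RLE) moved no CPM value by over 1.06-fold. Depth limits Cldn2, Aqp1, Folr1, Otx2, Calml4 and Sostdc1, which had low counts outside the high libraries. It also limits Clic6 in numbers 1 and 4 of both Hq groups, with 3 to 19 counts.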
